A study of Mus musculus with 20 samples.

Results

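The uroplakins are the membrane proteins that tile the luminal face of the bladder epithelium. Here their transcripts, Upk1a, Upk1b, Upk2, Upk3a and Upk3b, were followed across 20 mouse bladder and metastasis samples hybridised to Affymetrix whole-transcript arrays. The 5 genes were picked by symbol, without use of their values. Each had exactly 1 row on the array that named it alone, so 5 of the 30142 genes with a row of their own are described here. The samples fell into 5 groups. The treated bladders, 3 arrays (PALBO in the labels), came from bladders that had received an adenovirus coding for Cre recombinase and then palbociclib, a CDK4/6 inhibitor, at 150 mg/kg daily for 28 days together with weekly CDDP (cisplatin, a DNA-crosslinking drug) at 6 mg/kg. Metastatic tumours gave 4 arrays (M), and 1 further metastatic tumour bore the label PALBO-MET, here called the palbo metastasis. Bladders that had received the adenovirus alone gave 7 arrays (TUMOR, here tumour bladders). Bladders with no inoculation named gave 5 arrays (CT, here normal bladders, replicates 1, 2, 4, 5 and 6). All groups were on the FVB/N background, and the study's mice are described as conditional knockouts (CKO) with floxed alleles, Rb1 among them, and without p107, so the normal bladders are controls that lack the virus and not wild-type bladders. The labels give neither age nor sex, neither the organ the metastases were taken from nor the cells that took up the virus. They do not say that each array is a separate animal, so the p-values below measure the spread between these samples only.

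Uroplakins are made in quantity by umbrella cells, the large superficial cells of the urothelium. Upk1a and Upk1b are tetraspanins. Upk1a pairs with Upk2, and Upk1b pairs with Upk3a or its relative Upk3b, before the pairs leave the endoplasmic reticulum. The complexes then assemble into crystalline plaques that travel in fusiform vesicles to the apical membrane, where they make the epithelium watertight and let its surface area change as the bladder fills. Upk1a, Upk2 and Upk3a are known as markers of urothelial differentiation. Upk1b and Upk3b are also made outside the bladder, and in the mouse mesothelium, the lining of the body cavities, is a known site of Upk3b.

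Levels are robust multi-array average (RMA) values on a scale taken to be log2, so a difference of 1 is a doubling. A level can be set against another array's level of the same gene, but not against another gene's level, because each probe set has its own brightness. The median of all rows lay between 5.11 and 5.48 on the 20 arrays, and a level near or below it is dim. Arrays numbered 3 and 4 of the metastases, 3, 4 and 5 of the tumour bladders and 4, 5 and 6 of the normal bladders, 8 in all, stood apart from the other 12. Their deviations from the mean of all arrays correlated with those of no other array above r = 0.21, and the spread of their dim rows (SD 0.336 to 0.367) was wider than on any of the other 12 arrays (0.228 to 0.329). The uroplakin rows were left out when these 8 arrays were identified. On the 8 arrays the groups also lay close together for the mean of 10 listed smooth muscle genes. It ran from 6.67 to 6.89 in the tumour bladders, 6.72 to 6.88 in the normal bladders and 6.74 to 6.76 in the metastases. On the other arrays it ran from 5.36 to 10.07, 8.88 to 8.90 and 5.50 to 5.60 in these groups. A small difference among the 8 arrays therefore does not show an unchanged gene. All 3 treated bladders and the palbo metastasis were among the 12. Among these 12 arrays Xist, which coats the inactive X in female cells and was picked after its values were seen, stood at 7.10, 6.04 and 10.05 in the treated bladders, at 6.44 in the palbo metastasis and from 5.43 to 5.86 in the metastases and tumour bladders, against 11.74 and 11.71 in the normal bladders. The sex of the animals and the groups therefore cannot be told apart on those arrays.

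Promoters are shown for the members with a RefSeq entry in the table used here, Upk1a, Upk3a and Upk3b, 3 of 5, because over the 12 arrays the levels of Upk1a and Upk3a shared their high and low arrays and those of Upk3b did not. Each is the 250 bases before the RefSeq start in GRCm38.p6, printed 5′ to 3′ along the gene, with every match to a searched motif in capitals. Upk1a lies on chr7:30612735-30612984, minus strand, Upk3a on chr15:85016891-85017140, plus strand, and Upk3b on chr5:136038246-136038495, plus strand.
Upk1a: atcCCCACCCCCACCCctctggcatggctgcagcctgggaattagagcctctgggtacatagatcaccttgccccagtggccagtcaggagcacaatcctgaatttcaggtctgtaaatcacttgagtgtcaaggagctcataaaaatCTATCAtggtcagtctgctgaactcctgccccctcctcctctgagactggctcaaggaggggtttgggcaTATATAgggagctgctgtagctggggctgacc
Upk3a: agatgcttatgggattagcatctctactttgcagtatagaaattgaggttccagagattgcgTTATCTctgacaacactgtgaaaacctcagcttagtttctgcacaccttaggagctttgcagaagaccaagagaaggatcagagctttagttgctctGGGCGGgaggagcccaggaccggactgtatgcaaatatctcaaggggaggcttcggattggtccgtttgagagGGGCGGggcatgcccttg
Upk3b: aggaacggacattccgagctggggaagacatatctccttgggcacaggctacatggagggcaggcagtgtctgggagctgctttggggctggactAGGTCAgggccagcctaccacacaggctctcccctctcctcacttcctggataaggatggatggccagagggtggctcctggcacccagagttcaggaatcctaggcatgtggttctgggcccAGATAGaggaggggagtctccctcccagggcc

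Motifs were searched on both strands, 7 in all. A GATA box (AGATAA or TGATAA, or either with G as its last base) was found in each of the 3 windows, from -102 in Upk1a, from -188 in Upk3a and from -32 in Upk3b, where positions count back from the base before the start, and 26.5% of 32851 mouse promoter windows of the same length hold one. The Upk1a window held a TATA box (TATAAA or TATATA) from -32, as did 15.6% of all windows, and overlapping CACCC boxes (CCCACCC) from -247 and -241, as did 15.8%. The Upk3a window held GC boxes (GGGCGG) from -91 and -18, found in 32.7% of all windows. The Upk3b window held a nuclear receptor half-site (AGGTCA) from -155, found in 14.0%. The grainyhead site AACCGGTT and the forkhead sites TGTTTAC and TGTTTGC were in none of the 3 windows, and in 0.116% and 7.29% of all windows. A match describes the letters only.

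Upk1a, the tetraspanin partner of Upk2, had the widest range of the 5. It stood at 9.20, 9.91 and 10.89 in the treated bladders, at 5.46, 6.00, 8.12 and 7.51 in the metastases and at 4.07 in the palbo metastasis. In the tumour bladders the lowest level was 5.48, the median 8.14 and the highest 14.18, against 11.01, 12.28, 8.07, 8.34 and 8.04 in normal bladders 1, 2, 4, 5 and 6. The treated bladders lay inside the range of the normal bladders, and the tumour bladders covered both, from tumour bladder 6 close to the dimmest metastasis up to tumour bladder 7, which exceeded every normal bladder. The palbo metastasis lay below the median of its own array, where a level is dim, so its distance from brighter arrays is uncertain in size.

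Upk2, the single-pass partner of Upk1a, had a smaller range, with the same arrays at its ends. Its levels were 6.91, 6.66 and 6.92 in the treated bladders, 4.92, 4.999, 6.26 and 5.87 in the metastases and 4.38 in the palbo metastasis. The tumour bladders had a lowest level of 4.79, a median of 5.94 and a highest of 9.55, and the normal bladders had 6.96, 7.62, 6.12, 6.03 and 6.25. For this gene the treated bladders differed among themselves by less than the arrays of any other group (SD 0.15, n = 3). In metastases 1 and 2, tumour bladders 2 and 6 and the palbo metastasis Upk2 lay below the median of its own array.

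Upk3a, the partner of Upk1b in the mature plaque, stood at 7.49, 8.82 and 9.71 in the treated bladders, at 4.75, 4.96, 7.06 and 7.14 in the metastases and at 3.59 in the palbo metastasis. In the tumour bladders its lowest level was 4.73, its median 7.41 and its highest 12.39, against 9.55, 10.30, 6.76, 6.90 and 6.78 in the normal bladders. As with Upk1a and Upk2, tumour bladder 7 was the highest array and normal bladder 2 the next. The 5 lowest arrays of Upk3a, namely the palbo metastasis, tumour bladders 2 and 6 and metastases 1 and 2, were also the 5 lowest of Upk1a and of Upk2. For Upk2 and Upk3a all 5 lay below their array medians, and the order among them is not a measured one.

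Upk1b, the tetraspanin that releases Upk3a and Upk3b from the endoplasmic reticulum, departed from this order at metastasis 2. It stood at 11.93, 12.27 and 13.30 in the treated bladders, at 8.43, 12.14, 10.11 and 10.35 in the metastases and at 6.55 in the palbo metastasis. The tumour bladders had a lowest level of 6.49, a median of 10.64 and a highest of 14.41, and the normal bladders had 13.15, 13.31, 10.06, 10.78 and 9.99. Metastasis 2, among the 5 dimmest arrays for Upk1a, Upk2 and Upk3a, lay for Upk1b within the range of the treated bladders.

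Upk3b, the relative of Upk3a, had the narrowest range, in another order. Its levels were 6.03, 6.53 and 7.45 in the treated bladders, 5.87, 7.76, 6.48 and 6.51 in the metastases and 5.50 in the palbo metastasis. The tumour bladders had a lowest level of 4.83, a median of 6.04 and a highest of 7.53, and the normal bladders had 6.20, 6.41, 6.60, 6.45 and 6.56. Its highest array was metastasis 2, followed by tumour bladders 7 and 2 and treated bladder 3, and the 5 normal bladders lay within a narrow band (SD 0.16). The plot of levels by group shows these patterns.

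**Figure D1:**
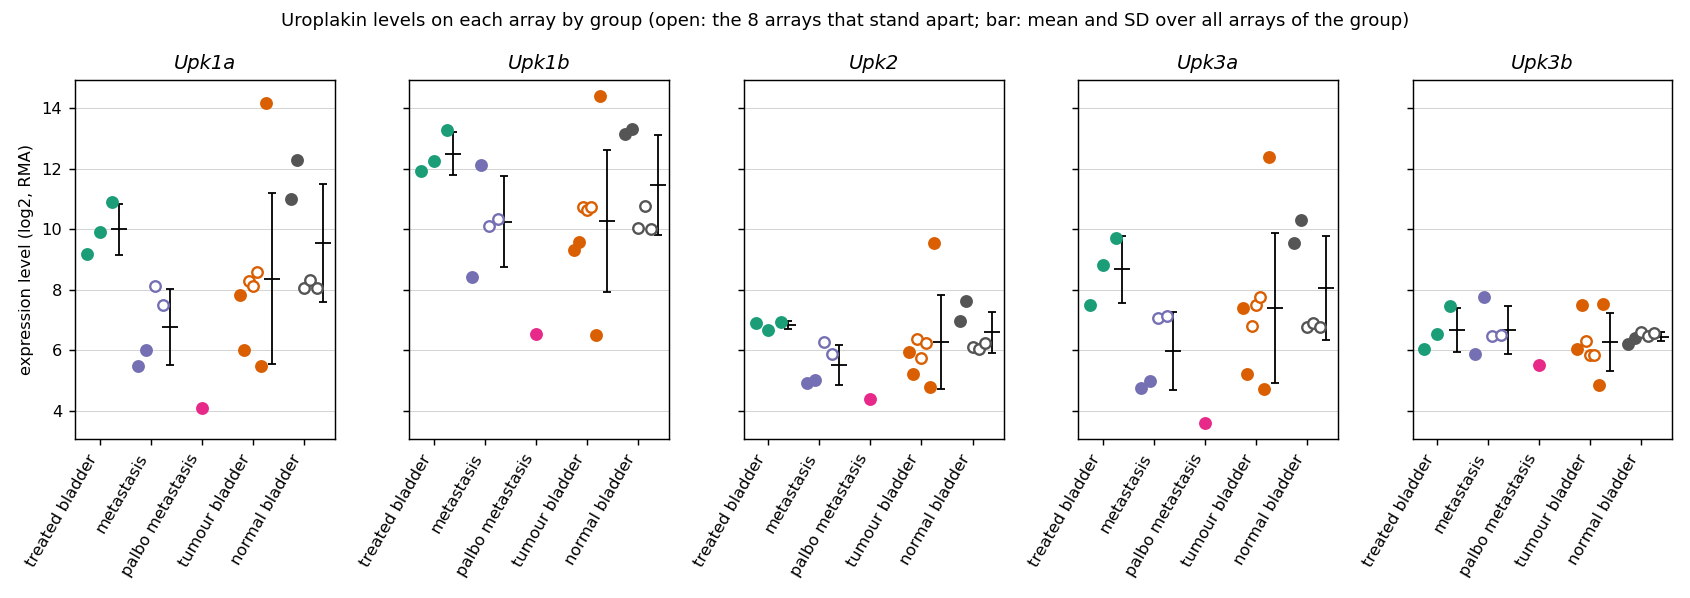
Levels (log2, RMA) of the 5 uroplakins on each of the 20 arrays, with the groups from left to right as treated bladder, metastasis, palbo metastasis, tumour bladder and normal bladder; open points are the 8 arrays that stood apart, and black bars give the mean and SD of a group. Tumour bladder 7 is the highest array for Upk1a, Upk1b, Upk2 and Upk3a, and the groups overlap for every gene; levels can be compared within a panel only.

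Upk1a averaged 9.999 ± 0.852 in the treated bladders (SD, n = 3), 6.77 ± 1.25 in the metastases (n = 4), 8.36 ± 2.83 in the tumour bladders (n = 7) and 9.55 ± 1.97 in the normal bladders (n = 5), beside the single value of 4.07 in the palbo metastasis. Its group means were thus highest in the treated bladders, then in the normal bladders, the tumour bladders and the metastases. Upk2, Upk3a and Upk1b followed the same order of groups, although for Upk1b the tumour bladders (10.27 ± 2.36) and the metastases (10.26 ± 1.52) differed by -0.01. Upk3b did not follow it, with 6.67 ± 0.72 in the treated bladders, 6.66 ± 0.80 in the metastases, 6.27 ± 0.96 in the tumour bladders and 6.44 ± 0.16 in the normal bladders. No neighbouring groups in these orders differed beyond their spread. The orders hold over all arrays. On the 12 arrays the normal bladders averaged above the treated bladders for Upk1a (11.64 against 9.999) and Upk1b (13.23 against 12.50). The same held there for Upk2 (7.29 against 6.83) and Upk3a (9.93 against 8.67). In the limma fit over all genes, with Benjamini-Hochberg adjustment over 30142 genes and a threshold of 0.05, no uroplakin and no other gene passed in any of the 5 comparisons. An unadjusted limma p under 0.05 was found for 1281 genes in tumour against normal bladders and 103 in treated against tumour bladders. For metastases it was found for 1745 genes against tumour bladders and 2082 against normal bladders, and for 108 in treated against normal bladders. If no gene differed, a share of about 0.05 of the 30142 genes would be expected there. The counts for metastases lay above that share and the others below it, so the counts alone do not show changed genes. In bulk tissue fewer urothelial cells and less uroplakin RNA per cell cannot be told apart, and this holds for every difference that follows.

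In the tumour bladders set against the normal bladders, which asks what the Cre virus changed, all 5 uroplakins were lower on average, by 1.18 for Upk1a (SE 1.16), 1.19 for Upk1b (SE 1.0), 0.33 for Upk2, 0.66 for Upk3a and 0.18 for Upk3b on the log2 scale. Every limma adjusted p was 0.998, and 0% of all genes passed. Lower levels by any amount were found for 46.9% of all genes, and a mean lower by at least 1 log2 unit, found for Upk1a and Upk1b, for 0.149% of all genes. The 95% interval for Upk1a ran from -3.61 to 1.24. The size and the direction depended on which arrays were used. Among the 12 arrays, tumour bladders 1, 2, 6 and 7 against normal bladders 1 and 2, the differences were -3.27 for Upk1a, -3.28 for Upk1b, -0.91 for Upk2 and -2.50 for Upk3a, with 0.17 for Upk3b. Among the 8 arrays that stood apart they were 0.20, 0.42, -0.01, 0.54 and -0.54 in the order Upk1a, Upk1b, Upk2, Upk3a and Upk3b. Tumour bladder 7 decided much of the mean: without it the differences over the remaining 19 arrays were -2.15 for Upk1a, -1.88 for Upk1b, -0.87 for Upk2, -1.49 for Upk3a and -0.39 for Upk3b.

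Smooth muscle genes, which mark the bladder wall and not its epithelium, moved beside the uroplakins in this comparison. All 10 listed smooth muscle genes were lower in the tumour bladders and none passed the test, with a median difference of -0.85, against 0.01 for all genes. The mean of the log2 levels of the listed genes ran from 5.36 in tumour bladder 6 to 10.07 in tumour bladder 7, against 6.72 to 8.90 in the normal bladders. Myh11, smooth muscle myosin, stood at 11.63 in tumour bladder 7 and at 5.31 in tumour bladder 6, close to its level of 4.72 in the palbo metastasis. The labelled tissue can be checked on these markers: tumour bladder 6, labelled bladder, had Upk3a at 4.73 and Myh11 at 5.31, near or below its array median of 5.12. All 9 measured leukocyte genes were higher in the tumour bladders, among them S100a9, a neutrophil gene, by 2.37, and all 9 measured genes of the G2 and M phases were higher. The part of muscle, leukocytes or cell division in the uroplakin differences was not tested.

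In the treated bladders set against the tumour bladders, which asks what palbociclib with CDDP changed, all 5 uroplakins were higher on average and none passed the test (limma adjusted p 1.0 for each). The difference was 1.64 for Upk1a (95% interval -1.23 to 4.497), 2.23 for Upk1b (-0.25 to 4.71), 0.56 for Upk2, 1.28 for Upk3a and 0.40 for Upk3b. Higher levels by any amount were found for 42.6% of all genes, and a mean higher by at least 1 log2 unit, seen for Upk1a, Upk1b and Upk3a, for 0.299% of all genes. The treated bladders overlapped the tumour bladders for every uroplakin, since tumour bladder 7 lay above all 3 treated bladders for each of them. Without tumour bladder 7 the difference became 2.60 for Upk1a, 2.92 for Upk1b, 1.11 for Upk2, 2.11 for Upk3a and 0.61 for Upk3b, and none passed. On the 12 arrays the values were close to those over all arrays for Upk1a (1.62), Upk1b (2.55), Upk2 (0.46) and Upk3a (1.24), and 0.20 for Upk3b.

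Luminal and muscle genes were mostly higher in the treated bladders too. Among 19 measured luminal urothelial genes other than uroplakins 18 were higher in the treated bladders, with a median of 0.26 against -0.02 for all genes, and all 10 smooth muscle genes were higher, with a median of 0.88. On the 12 arrays 13 of the 19 luminal genes were higher, with a median of 0.12. The basal urothelial genes went both ways, with 7 of 11 higher over all arrays and 6 of 11 on the 12 arrays. None of these lists' genes passed. Krt5, the keratin of basal urothelium, stood at 7.46, 6.90 and 8.97 in the treated bladders, and in the tumour bladders between 5.54 and 9.38 with a median of 6.88. Treated bladder 3 had the highest levels of Upk1a, Upk1b, Upk3a and Upk3b in its group together with the highest mean of the G2 and M phase genes, 6.74, against 5.43 and 5.38 in treated bladders 1 and 2. Its smooth muscle mean, 8.55, was also the highest of the group, against 6.78 and 7.61. Over the 12 arrays the G2 and M phase mean correlated negatively with Upk1a (r = -0.595), Upk1b (-0.605), Upk3a (-0.566) and Upk3b (-0.178). Leukocyte genes were lower in the treated bladders for 9 of 9 measured. Whether these lists have a part in the uroplakin levels was not tested.

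In the metastases set against the tumour bladders, 4 of 5 uroplakins were lower on average, and none passed (limma adjusted p from 0.886 to 0.999). The difference was -1.59 for Upk1a, -1.42 for Upk3a, -0.76 for Upk2 and -0.01 for Upk1b, with 0.39 for Upk3b. Lower levels by any amount were found for 56.1% of all genes, and a mean lower by at least 1 log2 unit, seen for Upk1a and Upk3a, for 0.0995% of all genes. Without tumour bladder 7 the values were -0.62 for Upk1a, -0.59 for Upk3a and -0.21 for Upk2, and Upk1b was 0.68 higher. On the 12 arrays the differences were -2.65 for Upk1a, -2.57 for Upk3a and -1.42 for Upk2, with 0.34 for both Upk1b and Upk3b. Among the 8 arrays that stood apart they were -0.53 for Upk1a, -0.25 for Upk3a, -0.06 for Upk2 and -0.47 for Upk1b, with 0.50 for Upk3b. Beside the uroplakins, all 10 smooth muscle genes were lower in the metastases (median -0.72), as were 18 of 19 luminal genes (median -0.43). All 7 mesothelial genes were higher (median 0.23) and 6 of 9 leukocyte genes were higher (median 0.54). None of these passed, and their part in the uroplakin differences was not tested. Cldn4, a tight junction gene of the superficial urothelium, was lower by 1.44 and did not pass either.

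The metastases set against the normal bladders gave the largest mean differences of the 5 comparisons for Upk1a, -2.78 (SE 1.32, 95% interval -5.56 to 0.01), Upk3a, -2.08, and Upk2, -1.08. Upk1b was lower by 1.20 and Upk3b higher by 0.21. None passed (limma adjusted p from 0.721 to 0.955). A lower mean was found for 52.7% of all genes, and a mean lower by at least 1 log2 unit, found for 4 of 5 uroplakins, for 0.372% of all genes. Among the 12 arrays, metastases 1 and 2 against normal bladders 1 and 2, the differences were -5.92 for Upk1a, -5.07 for Upk3a, -2.95 for Upk1b and -2.33 for Upk2. In both metastases Upk2 and Upk3a lay below the array median, so the sizes of their differences are uncertain. These 4 genes did not overlap between the groups there, as held for 25.0% of all genes in this direction, and none passed. Among the 8 arrays that stood apart the same differences were -0.34, 0.29, -0.05 and -0.07. There the smooth muscle means of metastases (6.74 to 6.76) and normal bladders (6.72 to 6.88) were alike too, so small differences do not show unchanged uroplakins. All 10 smooth muscle genes were lower in the metastases, with a median of -1.60, 18 of 19 luminal genes were lower, with a median of -0.48, and all 7 mesothelial genes were higher, with a median of 0.27, against -0.01 for all genes. Of the 9 leukocyte genes 8 were higher, with a median of 1.10 over all arrays and 2.61 on the 12 arrays, and all 9 genes of the G2 and M phases were higher, with a median of 0.50. Myosin heavy chain Myh11 was lower by 2.17. None of these list members passed, and their part in the uroplakin differences was not tested.

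In the treated bladders set against the normal bladders all 5 uroplakins were higher on average over all arrays, by 0.45 for Upk1a, 1.04 for Upk1b, 0.24 for Upk2, 0.61 for Upk3a and 0.23 for Upk3b, and none passed (limma adjusted p 1.0 for each). Higher levels by any amount were found for 46.7% of all genes and a mean higher by at least 1 log2 unit, seen for Upk1b, for 0.222%. The direction depended on the 8 arrays that stood apart, which include 3 of the 5 normal bladders. On the 12 arrays the treated bladders were lower than normal bladders 1 and 2, by 1.64 for Upk1a, 0.73 for Upk1b, 0.46 for Upk2 and 1.26 for Upk3a, and 0.37 higher for Upk3b. There the groups did not overlap for Upk1a and Upk2, as held for 6.08% of all genes in this direction. On the same 12 arrays all 10 smooth muscle genes were lower in the treated bladders (median -1.32), 8 of 9 leukocyte genes were higher (median 0.41) and all 9 genes of the G2 and M phases were higher (median 0.62). Over all arrays the smooth muscle genes were divided, 5 higher and 5 lower. None passed, and the part of these lists in the uroplakin differences was not tested. Comparisons that share a group also share its arrays, so the 5 comparisons are not independent of each other.

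**Figure D2:**
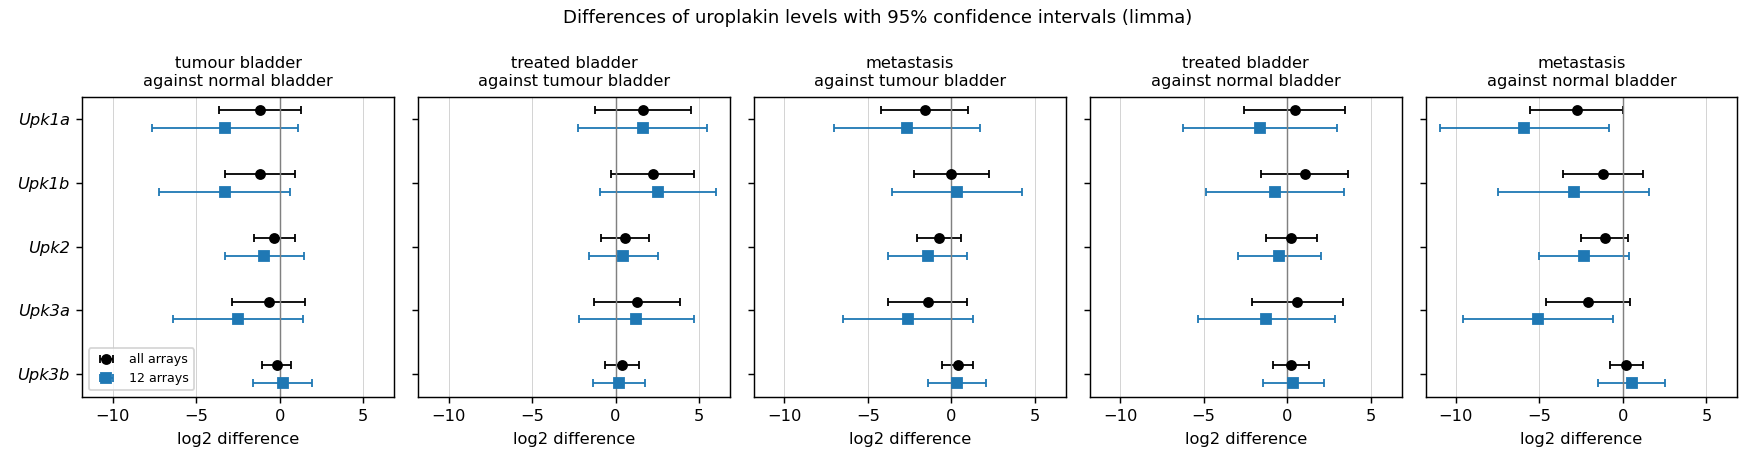
Differences in mean level (log2) of each uroplakin in the 5 comparisons, with 95% intervals from the limma fit; black circles use all arrays and blue squares the 12 arrays that did not stand apart. No difference passed after adjustment, and treated against normal bladders turns sign between the sets of arrays for Upk1a, Upk1b, Upk2 and Upk3a.

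The palbo metastasis is a single array, so its values have no replicate check. Its levels of Upk1a (4.07), Upk2 (4.38) and Upk3a (3.59) lay below its array median, with differences from it of -1.32, -1.01 and -1.79, and so were dim. It had the second lowest level for Upk1b (6.55, with tumour bladder 6 at 6.49) and Upk3b (5.50, with tumour bladder 6 at 4.83). The other 4 metastases lay higher for Upk1a, from 5.46 to 8.12, and for Upk1b, from 8.43 to 12.14. Its leukocyte genes had the highest mean of any array, 8.90, while its smooth muscle mean, 4.76, was the lowest.

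The 5 genes fell into patterns by array. Over the 12 arrays the levels of Upk1a and Upk3a correlated at r = 0.995 (Spearman rho = 0.986), Upk1a and Upk2 at r = 0.975 (rho = 0.986) and Upk2 and Upk3a at r = 0.967 (rho = 0.986). For each of these pairs the permutation p was 2e-05, the smallest that 100000 permutations can give, and 0.000133 after adjustment over the 20 relations computed. For each pair, here and below, the 2 arrays farthest from the median of its first gene (in the order Upk1a, Upk1b, Upk2, Upk3a, Upk3b) were also left out. Without them the coefficients were 0.990, 0.981 and 0.961. Coefficients of this size were not particular to uroplakin pairs. Over the same 12 arrays the smooth muscle mean correlated with Upk1a at r = 0.981, with Upk2 at 0.942 and with Upk3a at 0.975 (rho = 0.993 for each). The part of tissue make-up in the uroplakin coefficients was not tested. The arrays span all 5 groups, and a coefficient over them holds the differences between groups as well as those within.

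Upk1b correlated with Upk1a at r = 0.880 (rho = 0.923, permutation p = 8e-05, adjusted 0.0004), and at 0.820 without the 2 farthest arrays. Upk3b correlated with Upk1b at r = 0.683 (rho = 0.713, permutation p = 0.0153, adjusted 0.0438). This was 0.38 without the 2 arrays farthest from the median of Upk1b, the palbo metastasis and tumour bladder 6, and so rests on them. With Upk1a, Upk2 and Upk3a the coefficients of Upk3b were 0.398, 0.405 and 0.396, with adjusted permutation p 0.302 for each. Of the motifs searched in the printed promoters, the GATA box was in the windows of Upk1a, Upk3a and Upk3b alike. Over the 8 arrays that stood apart no pair passed by Pearson's r, where exact permutation p after adjustment was 0.0835 or above. By rank Upk1a and Upk1b did (rho = 0.833, exact permutation p = 0.0154, adjusted 0.0384, n = 8). There Upk1a and Upk3a correlated at r = 0.305 only, over a range of Upk1a from 7.51 to 8.60. On the 8 arrays Upk3b turned sign with Upk1b (r = -0.658), Upk1a (-0.52) and Upk3a (-0.869), where adjusted exact permutation p was 0.151, 0.297 and 0.0835. Without the 2 farthest arrays these coefficients were -0.488, -0.176 and -0.012, so that with Upk3a rests on them. With Upk2 the coefficient of Upk3b stayed positive on the 8 arrays (0.242), and was -0.295 without the 2 farthest.

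Upk3b parted from Upk1a, Upk2 and Upk3a on metastasis 2 and tumour bladder 2, and Upk1b did so on metastasis 2. Metastasis 2 had Upk1b at 12.14 and Upk3b at 7.76 beside Upk1a at 6.00 and Upk3a at 4.96. Tumour bladder 2 had Upk3b at 7.49 beside Upk1a at 6.01 and Upk3a at 5.19, while its Upk1b, 9.58, lay below the median of the tumour bladders. The same arrays had the highest means of the 7 mesothelial genes, 6.38 in metastasis 2 and 5.80 in tumour bladder 2, against 4.80 to 5.59 on the other 18 arrays. Wt1, a transcription factor of mesothelium, stood at 6.86 and 6.12 there, and Lrrn4, another mesothelial gene, at 7.54 and 6.83. Msln, mesothelin, was dim throughout, with 5.63 and 5.12 on these arrays. Gata6, a zinc finger factor of several tissues, was also highest on these arrays, at 8.90 and 7.53.

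High Upk3b without high mesothelial genes occurred as well. Tumour bladder 7 had Upk3b at 7.53 with a mesothelial mean of 5.21, and treated bladder 3 had Upk3b at 7.45 with a mean of 5.12, and on both arrays Upk1a, Upk2 and Upk3a were high too. Metastasis 1 had the third highest mesothelial mean, 5.59, and Wt1 at 6.65, with Upk3b at 5.87 only. The part of mesothelial cells in the Upk3b and Upk1b levels was not tested.

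**Figure D3:**
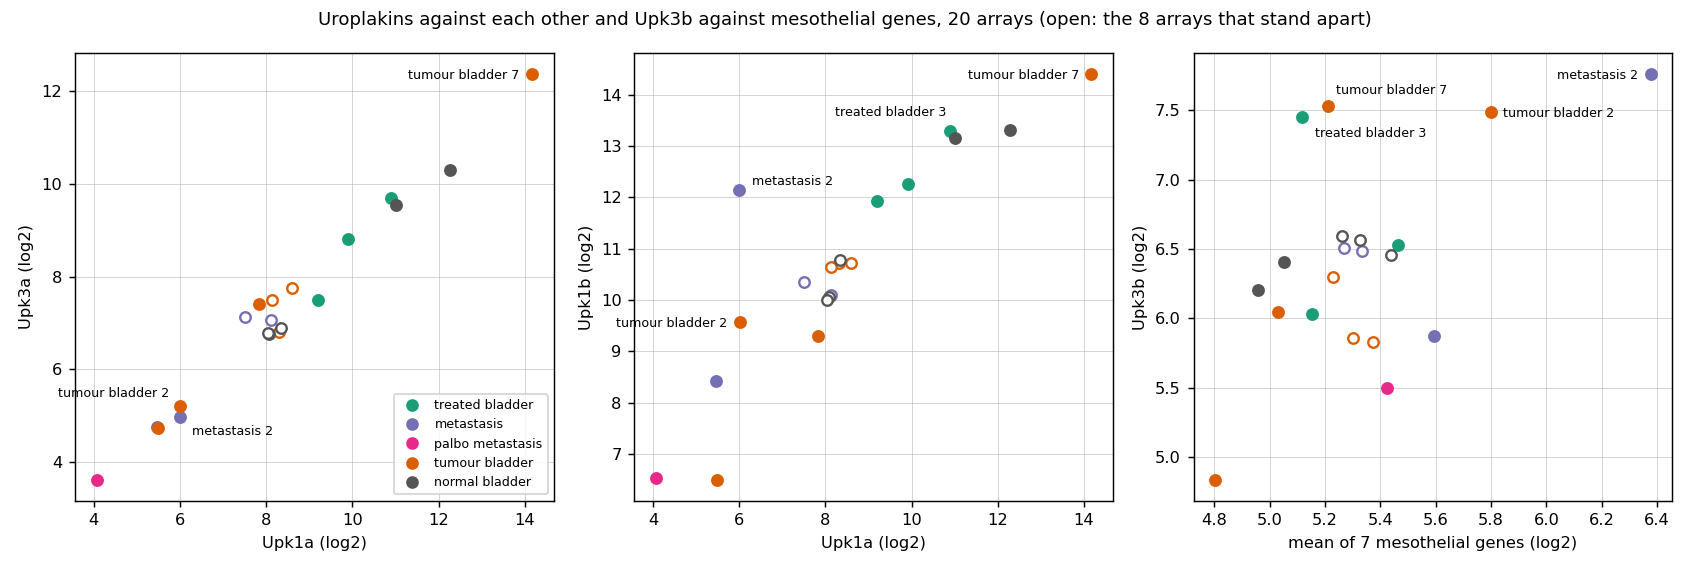
Upk3a and Upk1b against Upk1a, and Upk3b against the mean of 7 mesothelial genes, with levels in log2 and 1 point per array coloured by group; open points are the 8 arrays that stood apart. Upk3a lies close to a line on Upk1a, metastasis 2 lies far above the other arrays of like Upk1a for Upk1b, and high Upk3b occurs on arrays with high (metastasis 2, tumour bladder 2) and with ordinary (tumour bladder 7, treated bladder 3) mesothelial means.

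The genes whose levels were most like the mean of the 5 uroplakins over all 20 arrays, among 17635 genes compared by Pearson's r, were Snx31 (0.976), Synpo2 (0.965), Sptssb (0.964), Sh3gl2 (0.959), Lmod1 (0.955), Fmo5 (0.953), Pgm5 (0.953), Myh11 (0.951), Adh1 (0.949) and Cnn1 (0.948). Snx31, a sorting nexin that binds uroplakins in umbrella cells, stood in this list beside the smooth muscle genes Synpo2, Lmod1, Myh11 and Cnn1. Over the 12 arrays Wfdc15b (0.982), Snx31 (0.979) and Lmod1 (0.978) came first, and Wfdc15b reached 0.999 with Upk1a and 0.995 with Upk3a. Sptssb, a subunit of serine palmitoyltransferase, had a wide range, from 4.13 in the palbo metastasis to 14.78 in tumour bladder 7.

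The single genes had different neighbours. Upk2 was most like Snx31 (0.972), Upk1a (0.969) and Psca (0.966), a glycosylphosphatidylinositol-anchored protein of the urothelium, over the 20 arrays. Upk1b was most like Tns1 (0.924), a focal adhesion protein, Plxna2 (0.913), a semaphorin receptor, and Plcb4 (0.906), with the smooth muscle actin gene Acta2 (0.894) the fifth. Upk3b was most like Ppl (0.866), the cornified envelope and desmosome protein periplakin, and Cd55 (0.855), which protects cells from complement, and over the 12 arrays Cyp2s1 (0.943) and Mocs1 (0.933) came first. Cd55 was highest on the same 2 arrays as the mesothelial genes, at 9.64 in metastasis 2 and 8.88 in tumour bladder 2. These coefficients are a description over arrays of mixed tissue.

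Genes listed for uroplakin vesicle traffic followed only in part. Snx31 stood at 6.43, 7.61 and 8.24 in the treated bladders, at 4.46, 4.62, 6.34 and 5.80 in the metastases and at 3.61 in the palbo metastasis. In the tumour bladders it ran from 4.35 to 10.65 with a median of 6.00, and in the normal bladders it stood at 7.83, 8.62, 6.43, 6.35 and 6.16. Snx31 was thus high and low on the same arrays as Upk1a. Mal, a raft protein of apical transport in urothelium, ran between 5.88 and 7.80 in the treated bladders, 5.13 and 5.80 in the metastases, 5.06 and 8.12 in the tumour bladders and 6.05 and 7.48 in the normal bladders. The Rab27b GTPase, which resides on fusiform vesicles, and Sytl2, a Rab27 effector, were likewise highest in tumour bladder 7, at 6.48 and 7.56, and among the lowest in metastases 1 and 2 and the palbo metastasis.

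The general transport genes of the list did not share that range. Vps33a stayed between 5.76 and 6.32, Rab11a between 6.19 and 7.34 and Rab8a between 5.94 and 7.08. For Vps33a and Rab8a tumour bladder 6 and metastasis 1 were at the upper end. Myo5b, a motor for apical recycling vesicles, lay between 5.49 and 6.53. Upk3bl, the uroplakin 3b-like gene, stayed between 5.03 and 5.98 and did not follow Upk3b. Of the 9 genes 7 were lower in the metastases than in the normal bladders, by 1.77 for Snx31, 1.08 for Mal, 0.80 for Sytl2 and 0.40 for Rab27b, with a median of -0.11 over the list. In the treated bladders against the tumour bladders 7 were higher, Snx31 by 1.10. No gene of this list passed in any comparison.

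Of the urothelial transcription factors 11 were measured and none passed. Pparg, the nuclear receptor whose loss blocks urothelial differentiation in mice, stood at 6.02, 6.28 and 7.09 in the treated bladders, at 5.73, 5.24, 6.22 and 5.85 in the metastases and at 4.95 in the palbo metastasis. In the tumour bladders it ran from 5.01 to 7.26 with a median of 6.11, and in the normal bladders from 5.75 to 6.86. Grhl3, a grainyhead factor required for umbrella cells in mice, ran from 5.74 to 6.79 in the treated bladders, 5.09 to 6.07 in the metastases, 5.18 to 7.26 in the tumour bladders and 5.93 to 6.46 in the normal bladders. In the metastases against the normal bladders 7 of the 11 were lower and 4 higher, with a median of -0.09. Klf5 and Elf3, both factors of epithelial differentiation, were lower by 0.64 and 0.45, and Cebpa, a leucine zipper factor of epithelial and myeloid cells, was higher by 0.69 (limma adjusted p = 0.72). Tumour bladder 7 had the highest level of Pparg, Grhl3 and Klf5, as of Upk1a, Upk1b, Upk2 and Upk3a. Foxa1 (3.58 to 4.76) and Ovol1 (4.12 to 4.78) were below the array median on all 20 arrays, and Irf1 was highest in metastasis 1 and the palbo metastasis, at 6.30 and 6.31.

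The keratins set the uroplakins beside other layers of the epithelium. Krt18, a simple epithelial keratin of superficial cells, had 6.81, 7.09 and 9.32 in the treated bladders, 4.46, 6.32, 6.77 and 6.86 in the metastases and 4.20 in the palbo metastasis. It ran from 5.09 to 11.00 in the tumour bladders and from 6.65 to 8.47 in the normal bladders. Krt20, the classical umbrella cell keratin, stayed between 4.52 and 6.42. Its group means were 5.31 in the treated bladders, 5.30 in the metastases, 5.25 in the tumour bladders and 5.33 in the normal bladders. On most arrays Krt20 lay near or below the array median and so was dim, and like group means do not show an unchanged gene. It stood at 4.52 and 4.86 in metastases 1 and 2, but at 5.65 and 6.18 in metastases 3 and 4. Normal bladders 1 and 2 had 5.44 and 5.455. In tumour bladder 1 Krt5 stood at 8.07 and Cldn4 at 8.06 beside a smooth muscle mean of 5.93. Upk1a, at 7.84, and Upk1b, at 9.31, were below the medians of the tumour bladders there. Krt14, a basal keratin, was highest in tumour bladder 2, at 6.09.

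**Figure D4:**
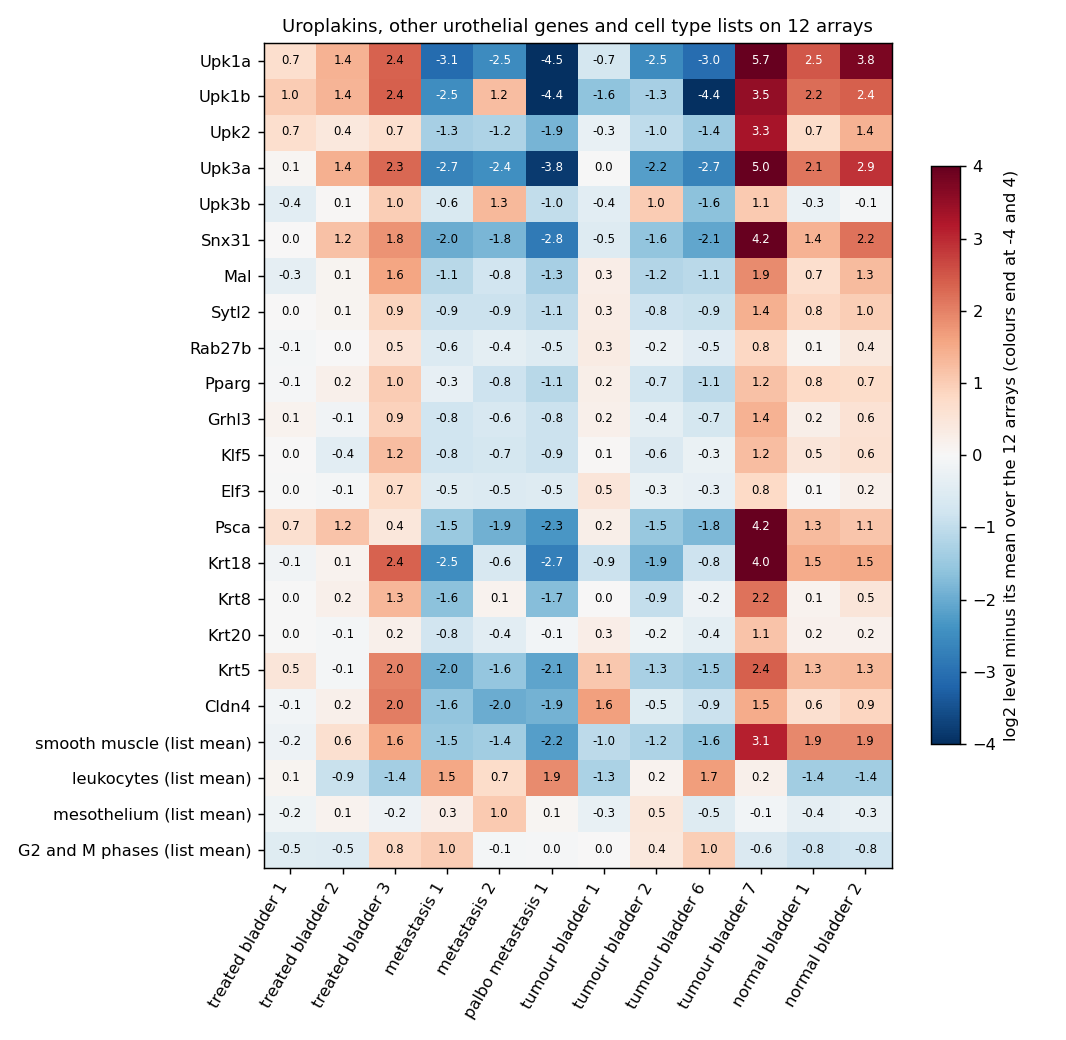
Level minus its mean over the 12 arrays that did not stand apart (log2), for the uroplakins, genes of vesicle traffic, transcription factors, keratins and other epithelial genes, and the means of 4 cell type lists; columns are arrays by group and colours end at -4 and 4. Upk1a, Upk2, Upk3a, Snx31 and the smooth muscle mean share their high and low arrays, while metastasis 2 is low for these and high for Upk1b, Upk3b and the mesothelial mean.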

How the data were processed

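The authors deposited RMA values of 20 Affymetrix arrays made in Affymetrix Expression Console, per the submitters' processing notes. No source names a logarithm's base, and the deposited values were taken as log2. Versions and genome build are not given in the sources used here. Per the labels' protocols, the RNA extraction kit (miRNeasy FFPE) was one for paraffin tissue. The table held 65956 rows. Rows with 1 gene symbol in the platform annotation (30604 of them) gave 30142 genes, the brightest row standing for a gene with several, and 827 symbols were updated through Entrez identifiers. Groups were compared with limma 3.58.1 (R 4.3.3) in 1 fit over all arrays with a coefficient per group, 2-sided, with Benjamini-Hochberg adjustment over all genes. The fit was tested on simulated data. The number of arrays limits the precision, and no scanner files or batches were used.

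Arrays were called apart where the SD of rows with means between 4.5 and 5.0 exceeded 0.3 and no correlation of deviations with another array reached 0.25; this was chosen after seeing the data. The members, lists and tests were chosen with earlier results of these data known. Besides the 5 uroplakins the text names, by rule, vesicle traffic and transcription factor genes, 9 marker genes, the 3 members of other lists with the smallest p in a comparison, and the genes with the highest Pearson r with the uroplakins; Xist was chosen after its values were seen. Lists covered luminal, basal and general epithelium, smooth muscle, fibroblasts, leukocytes, mesothelium, endothelium and the G2 and M phases. Alternatives were quantile normalisation, centring on array medians, weights per array, other treatment of several rows per gene, leaving out dim genes, fitting each pair of groups alone, another prior (trended, robust), a replicate block, adding the palbo metastasis to the metastases, and leaving out each array.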

Additional observations from a re-analysis of the deposited data

Results flagged for a closer look

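Tumour bladder 7 stood far above the other tumour bladders for 3 of the uroplakins. Its Upk1a level was 14.18, against 8.60 in the next tumour bladder, and that gap was 0.641 of the range of the 7 tumour bladders. Its Upk2 level was 9.55, against 6.38 in the next, a gap of 0.667 of the range. Its Upk3a level was 12.39, against 7.76 in the next, a gap of 0.604. Each is beyond Dixon's 95% limit for 7 samples. The 7 include tumour bladders 3, 4 and 5, which stood apart, and the next tumour bladder was number 5, 3 and 5 in turn. Whether tumour bladder 7 passes the limit among tumour bladders 1, 2, 6 and 7 alone was not examined, so the flags hold for both kinds of array pooled. In all 15 sets of 1 gene and 1 group were examined, and chance alone passes that limit in about 1 set in 20. The sets are not independent. The 3 flagged ones are the same array for genes that rose and fell together, and so are not separate observations. The same array had the highest smooth muscle mean of all arrays, 10.07, and a G2 and M phase mean of 5.33. Differences without it stand beside those that include it in the results above.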

How the results depend on the processing

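The 25 uroplakin differences were recomputed under 550 alternatives in all: 513 kept the direction, 37 turned it and none passed. The lowest limma adjusted p was 0.214 (Upk1a, metastases against normal bladders, array weights). Fitting each pair of groups alone, another prior and leaving out dim genes could not change a difference. Nor could other treatment of several rows, since each uroplakin had 1 row. The directions kept under these alternatives are counted among the 513, but they were fixed in advance and say nothing on robustness. In tumour against normal bladders Upk3b turned with array weights (0.034) and without the 8 arrays that stood apart (0.17) and ran from -0.39 to 0.063 when each array was left out. On only the 8 arrays Upk1a (0.20), Upk1b (0.42) and Upk3a (0.54) turned. In treated against tumour bladders Upk3b turned with array weights (-0.22). In metastases against tumour bladders Upk1b turned with array weights (0.055), centring on medians (0.034), without the 8 arrays (0.34) and with these as a term (0.031), and ran from -0.64 to 0.68 when each array was left out. In treated against normal bladders array weights turned Upk1a (-1.06), Upk1b (-0.15), Upk2 (-0.020), Upk3a (-1.06) and Upk3b (-0.19). Without the 8 arrays Upk1a (-1.64), Upk1b (-0.73), Upk2 (-0.46) and Upk3a (-1.26) turned, and Upk3b ran from -0.16 to 0.55 when each array was left out. In metastases against normal bladders Upk3b turned with the palbo metastasis included (-0.019) and on only the 8 arrays (-0.042), as did Upk3a there (0.29), and Upk3b ran from -0.16 to 0.47 when each array was left out. The number of genes that passed was 0 under the main fit in every comparison. It was 3 for metastases against tumour bladders and 3 for metastases against normal bladders without the 8 arrays, and 1 for metastases against normal bladders in a fit of those groups only. Leaving out any single array gave 0. The causes were not tested.

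The labels do not say whether replicate numbers pair the samples. Deviations of same-numbered arrays correlated between -0.593 and 0.323. Arrays of different numbers were not correlated for reference, so these values cannot decide whether samples are paired. With the number as a replicate block Upk1b turned in metastases against tumour bladders (0.12), Upk1a (-0.48), Upk2 (-0.16), Upk3a (-0.078) and Upk3b (-0.12) in treated against normal bladders, and Upk3b in metastases against normal bladders (-0.058). No gene passed under the block. The treated bladders include none of the 8 arrays, so those comparisons could not be made on the 8 alone.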
